A study of Mus musculus with 3 samples.

Results

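A set of 10 genes of nucleic acid sensing was followed through every probe set that the platform annotation gives to them alone, 20 probe sets in all, out of 28898 probe sets with 1 gene and 17097 genes in the series. They are Ddx58 (RIG-I), Ifih1 (MDA5), Dhx58 (LGP2), Zbp1, Eif2ak2 (PKR), Tlr3, Mavs, Ifi203, Ifi205 and Adar, given by name. The arrays measured mouse bone marrow mesenchymal progenitors, called PaS+ in the labels, which were sorted by FACS from 8-week-old mice of the strain written C56Bl/6 and cultured for 7 days in 1% oxygen. The cells were transduced overnight with lentiviral vectors carrying a short hairpin RNA (shRNA) against HIF-2α (labelled shHIF-2a), an shRNA against HIF-1α (shHIF-1a) or a control shRNA (shCTR), and RNA was collected 4 days after transduction. Each group is 1 array, all 3 groups carry a lentivirus, and the labels describe no culture without virus, name no hairpin sequence and do not say how many mice were pooled. With 1 array per group there is no replicate error to hold a difference to, and nothing was tested. Having 3 arrays limits precision.

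Cells carry proteins that recognise RNA or DNA in the wrong place or form. RIG-I and MDA5 are cytosolic helicases that bind double-stranded RNA and signal through MAVS, an adaptor on mitochondria, to the kinase TBK1 and the factors IRF3 and IRF7, which switch on type I interferon. TLR3 binds double-stranded RNA inside endosomes and also leads to type I interferon, but through another adaptor, encoded by Ticam1. PKR halts translation when it binds double-stranded RNA, ZBP1 binds nucleic acid in the Z form, and the PYHIN proteins of the Ifi200 cluster bind DNA. ADAR edits adenosine to inosine in double-stranded RNA and so keeps a cell's own RNA from being sensed. Many of these genes are themselves induced by interferon. The name cytosolic sensors is loose for the set, since TLR3 sits in endosomes, MAVS is an adaptor and ADAR is an editing enzyme.

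Values are RMA intensities on a linear scale. The highest of 23 nonspecific control probe sets read 3.47 on the control array, and values under this nonspecific level were raised to it before a fold was taken, so that such folds are lower bounds. Each gene is described by its brightest probe set (averaging the 3 arrays), and the other probe sets of the sensor genes are given beside it. Among all 28898 probe sets the share that reached the nonspecific level was 45.4%, 44.8% and 42.1% for the HIF-2α, HIF-1α and control hairpins. Hif1a read 332.4 on both shRNA arrays and 352.1 on the control array, and Epas1, which encodes HIF-2α, read 3.21, 9.44 and 5.09 on the HIF-2α, HIF-1α and control arrays. The first of these Epas1 values lay under the nonspecific level. It was at least 2.72-fold lower than on the HIF-1α array and at least 1.47-fold lower than on the control array. Hif1a was no lower with its own hairpin than with the other one. The arrays are therefore called HIF-2α-labelled and HIF-1α-labelled, and which hairpin a direction belongs to is known by label. Of 10 listed mesenchymal progenitor markers 9 had a probe set of their own, and these read above the nonspecific level on the 3 arrays, Lepr narrowly at 5.34, 3.86 and 4.47. Pdgfra read 47.9, 51.6 and 38.2 on the HIF-2α-labelled, HIF-1α-labelled and control arrays, while Ly6a, which encodes Sca-1, was not analysed here.

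Sensor genes were brighter on both shRNA arrays than on the control array. With the HIF-2α hairpin all 10 were past 2-fold, as 3.96% of all genes were, and their median log2 difference was 2.24. With the HIF-1α hairpin 9 of 10 were past 2-fold, as 2.1% of all genes were, and their median was 2.11. Mavs was the exception at 1.93-fold. None was 2-fold lower on either array, against 0.269% of all genes with the HIF-2α hairpin and 0.0292% with the HIF-1α hairpin. The median over all 17097 genes was 0.00 in both comparisons, which share the control array. Genes under the nonspecific level on both arrays compared count as 0 there. Over the 8315 genes that passed it on the control array the medians were 0.12 (HIF-2α hairpin) and 0.08 (HIF-1α hairpin). The upper quartile of intensity was 13.9 on the HIF-2α-labelled and 13.0 on the HIF-1α-labelled array, against 9.81 on the control array. Genes as bright on the control array as the 7 sensor genes that passed the nonspecific level there were past 2-fold more often than all genes, at 10.5% on the HIF-2α-labelled and 5.06% on the HIF-1α-labelled array. Of those 7 sensor genes, 7 and 6 were past 2-fold on these arrays. In these bulk samples fewer cells of a type and less RNA per cell cannot be told apart.

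**Figure D1:**
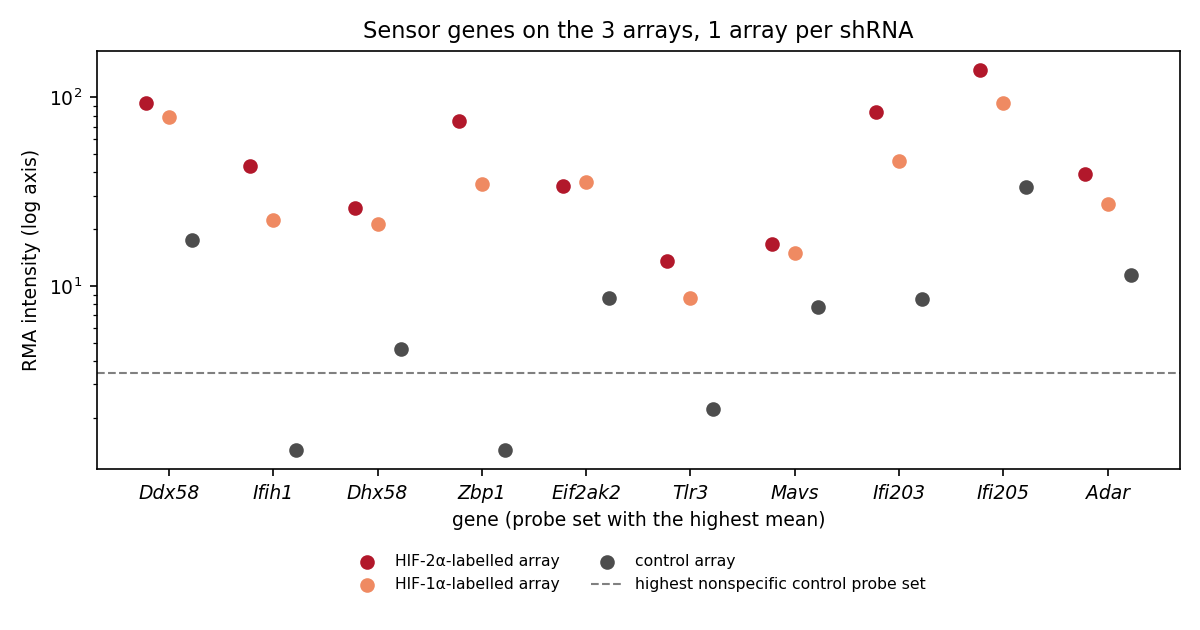
RMA intensity (log axis) of the 10 sensor genes, each by the probe set with the highest mean, on the HIF-2α-labelled, HIF-1α-labelled and control arrays. Each point is 1 array and the dashed line is the nonspecific level of 3.47; every gene lies higher on both shRNA arrays than on the control array, where Ifih1, Zbp1 and Tlr3 lie under the line.

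These differences depended on how dim values are treated. With 32 added before log2, which shrinks differences of dim genes, 5 sensor genes on the HIF-2α-labelled and 1 on the HIF-1α-labelled array were past 2-fold, as 0.211% and 0.0994% of all genes were. Ddx58 was the one on the HIF-1α-labelled array, and Ddx58, Ifih1, Zbp1, Ifi203 and Ifi205 were the 5 on the HIF-2α-labelled array. The deposited values also fall on shared steps. The control value of Ifih1 and of Zbp1, 1.35, was read by 4113 of the 45141 probe sets of that array, that of Tlr3, 2.23, by 507, and that of Dhx58, 4.64, by 638. The control values of the other 6 sensor genes were held by no other probe set.

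The following stretches come from the RefSeq promoter table (GRCm38.p6), which reaches from 250 bases before to 50 after an annotated start, and are shown because the sensor genes differed in the same direction and the interferon-stimulated response element is the site through which many interferon-induced genes are switched on. The table held 11 windows for 8 of the 10 genes, and Dhx58 and Zbp1 are named only. The core of that element, GAAA and GAAA set apart by any 2 bases, or the complement, TTTC and TTTC set apart likewise, lay in a window of 5 of these 8 genes, Ifi203, Ifi205, Ifih1, Eif2ak2 and Ddx58, and in a window of 3.99% of all 27025 genes in the table (3.44% of all 32851 windows). In each line the sequence runs 5′ to 3′ on the strand of the gene and capitals mark the match.
Ifi203, chr1:173942493-173942552, minus strand: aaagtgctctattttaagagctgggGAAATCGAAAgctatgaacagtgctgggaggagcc
Ifi205, chr1:174031855-174031914, minus strand: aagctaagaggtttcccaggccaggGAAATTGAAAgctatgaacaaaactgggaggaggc
Ifih1, chr2:62646206-62646233, minus strand: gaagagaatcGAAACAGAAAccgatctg
Eif2ak2, chr17:78882535-78882564, minus strand: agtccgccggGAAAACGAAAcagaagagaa
Ddx58, chr4:40239804-40239833, minus strand: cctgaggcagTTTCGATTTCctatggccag
Adar, chr3:89730738-89730767, plus strand: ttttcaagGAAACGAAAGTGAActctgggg

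Ifi203 had 2 windows, and the match lay in the one printed and not in the other. It began 35 bases before the annotated start of that window and 134 before the start in Ifi205. Between these stretches 40 of 60 bases were identical when lined up on the match. The match began 32 bases after the start in Ifih1, 18 after it in Eif2ak2 and 2 after it in Ddx58, where the complement was matched. Ifi205 held a further match of the complement, TTTCACTTTC, that began 23 bases after its start. Windows of Tlr3, Mavs and Adar held no match. Adar is printed for a pair of other spellings that were added after the windows had been read, GAAANGAAA and GAAANNGAA, which overlap each other there. The first, with its complement, lay in windows of Adar and Ddx58 and of 3.70% of all genes. The second is the core without its last base, so every core holds it, and it lay in windows of 6 of the 8 sensor genes and of 9.76% of all genes. A match is a run of letters, not a measured binding site, and no match says only that these letters are not in this window.

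The RIG-I-like helicases come first among the RNA sensors. Ddx58, which encodes RIG-I, the helicase that detects short double-stranded RNA with a 5′ triphosphate, read 93.8 on the HIF-2α-labelled and 78.9 on the HIF-1α-labelled array, against 17.4 on the control array. It was 5.37-fold and 4.52-fold higher than control, and the shRNA arrays differed by 1.19-fold. A second probe set read 24.8, 24.5 and 2.06 in the same order, which makes it at least 7.15-fold and at least 7.06-fold higher. The remaining one read 1.87 on every array, under the nonspecific level.

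Ifih1, which encodes MDA5, the sensor of long double-stranded RNA, had 1 probe set. It read 43.1 on the HIF-2α-labelled and 22.3 on the HIF-1α-labelled array, against 1.35 on the control array. It passed the nonspecific level only on the shRNA arrays, at least 12.4-fold higher on the first and at least 6.41-fold on the second. How far it differed beyond these bounds was not measured, since its control value was under the nonspecific level.

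Dhx58 encodes LGP2, which resembles the other helicases but lacks their signalling domains and modulates them. Its brightest probe set read 26.04 on the HIF-2α-labelled and 21.3 on the HIF-1α-labelled array, against 4.64 on the control array, or 5.61-fold and 4.59-fold higher. The other 2 probe sets of the gene stayed between 0.86 and 1.21 on all arrays. With the mean of the 3 probe sets the log2 differences were 0.83 and 0.73, under 2-fold.

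Mavs, the adaptor that RIG-I and MDA5 share, had 1 probe set and, by brightest probe sets, the smallest difference of the 10. It read 16.6 on the HIF-2α-labelled and 15.00 on the HIF-1α-labelled array, against 7.75 on the control array. It was 2.14-fold and 1.93-fold higher, so the 2-fold line fell between the arrays, whose own values differed by 1.11-fold. With the mean of all probe sets Tlr3 and Dhx58 differed less than Mavs on both arrays, and Adar on the HIF-1α-labelled array. After quantile normalization the log2 differences were 0.64 and 0.57, and after cyclic loess 0.88 and 0.77, all under 2-fold.

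Tlr3, the endosomal receptor for double-stranded RNA, was the dimmest of the 10 on both shRNA arrays, with 13.5 on the HIF-2α-labelled and 8.60 on the HIF-1α-labelled array, against 2.23 on the control array. It was at least 3.88-fold and at least 2.48-fold higher. These values come from a probe set whose suffix (s_at) marks probes that several transcripts share. The other probe set read 1.87, 1.46 and 1.25, under the nonspecific level, and without suffixed probe sets Tlr3 had no measured difference. With the mean of both probe sets the log2 differences were 0.98 and 0.65, and with a floor 2 times as high 0.96 and 0.31, under 2-fold.

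**Figure D2:**
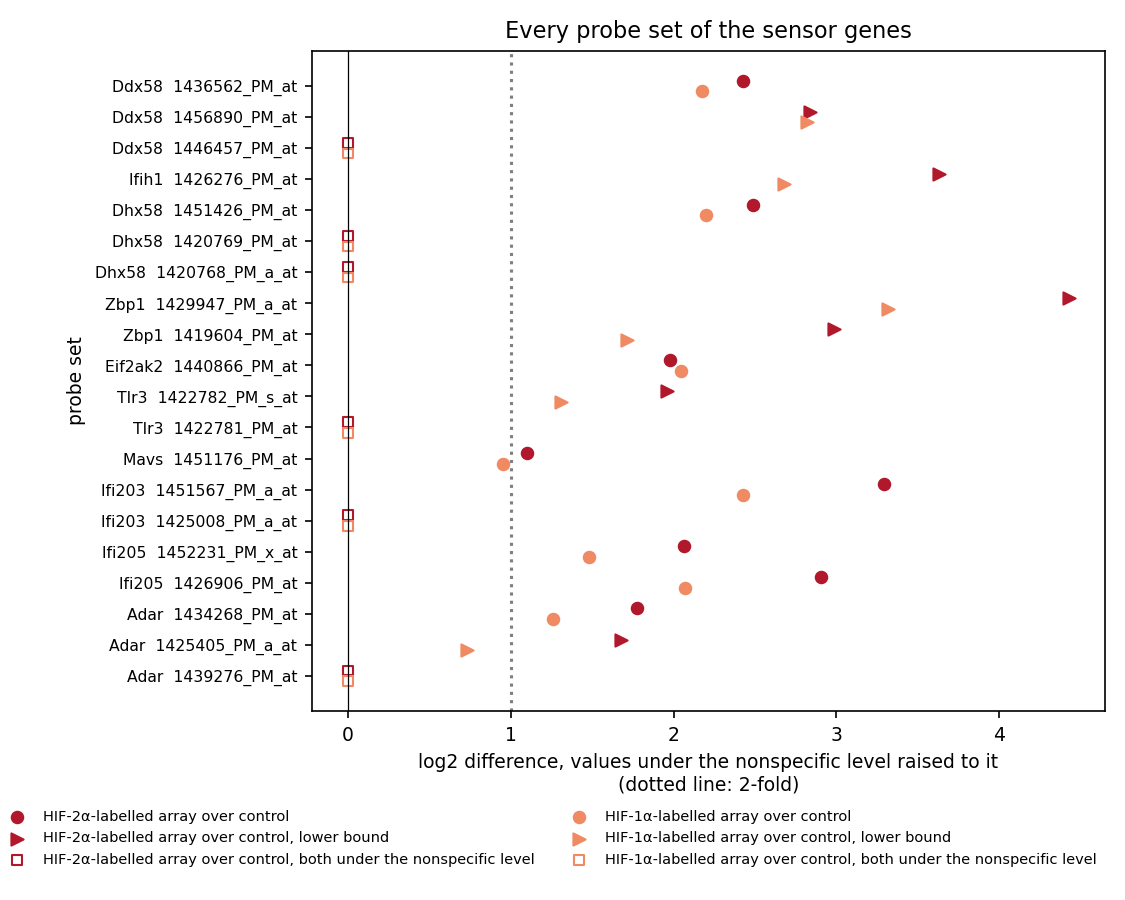
Log2 difference from control of all 20 probe sets of the sensor genes on the HIF-2α-labelled and HIF-1α-labelled arrays, after values under the nonspecific level were raised to it. Triangles are lower bounds and open squares are probe sets under the nonspecific level on both arrays compared; 14 and 12 probe sets lie at or right of the dotted 2-fold line, and the 6 open pairs at 0 belong to Ddx58, Dhx58, Tlr3, Ifi203 and Adar.

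Zbp1 is a sensor with an effector arm. Its product binds Z-form RNA and DNA and can start cell death through the kinase RIPK3. The brighter probe set read 74.7 on the HIF-2α-labelled and 34.6 on the HIF-1α-labelled array, against 1.35 on the control array. It was at least 21.5-fold and at least 9.97-fold higher than control, and it was the only sensor gene that differed 2-fold between the shRNA arrays, at 2.16-fold. A second probe set, without a suffix for shared probes, read 27.5, 11.4 and 2.66 and was at least 7.92-fold and at least 3.27-fold higher than control.

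Eif2ak2 encodes PKR, the kinase that phosphorylates the initiation factor eIF2α when it binds double-stranded RNA. Its 1 probe set read 33.9 on the HIF-2α-labelled and 35.5 on the HIF-1α-labelled array, against 8.62 on the control array. It was 3.94-fold and 4.12-fold higher than control, and it was the only sensor gene that was not brighter on the HIF-2α-labelled than on the HIF-1α-labelled array. The difference between the shRNA arrays was −0.07 on the log2 scale.

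Adar, the editor of double-stranded RNA, read 39.2 on the HIF-2α-labelled and 27.3 on the HIF-1α-labelled array, against 11.4 on the control array, or 3.43-fold and 2.39-fold higher. A second probe set read 11.1, 5.76 and 1.89 and was at least 3.20-fold and at least 1.66-fold higher, and the remaining one read 1.58 on every array. On the HIF-1α-labelled array the log2 difference was 0.97 after quantile normalization and 0.66 with the mean of the probe sets, under 2-fold.

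Ifi203 and Ifi205 belong to the PYHIN family, whose mouse genes lie together on chromosome 1 and include receptors for DNA. Ifi203 read 83.3 on the HIF-2α-labelled and 45.8 on the HIF-1α-labelled array, against 8.52 on the control array, or 9.78-fold and 5.37-fold higher, while its other probe set stayed between 1.47 and 1.63. Both probe sets of Ifi205 passed the nonspecific level on the 3 arrays. The first read 140.0, 93.7 and 33.5, or 4.18-fold and 2.80-fold higher, and the second 108.3, 60.7 and 14.4, or 7.51-fold and 4.21-fold higher. The first probe set of Ifi205 has the suffix (x_at) for probes that can also match other sequences, and those of Ifi203 one (a_at) for several transcripts. The second of Ifi205 has no such suffix. For the x_at probe set, signal from related genes cannot be told apart.

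Probe sets of 1 gene thus gave unequal folds. Of the 7 genes with more than 1 probe set, Ddx58, Zbp1, Ifi205 and Adar had at least 2 that passed the nonspecific level on both shRNA arrays and were brighter there. Of the 20 probe sets 6 were under the nonspecific level on every array, and 3 of these held exactly 1 value on all 3 arrays. Counting probe sets, 14 of 20 were past 2-fold with the HIF-2α hairpin, against 3.74% of all probe sets with 1 gene, and 12 of 20 with the HIF-1α hairpin, against 1.97%. Over 2710 genes with several probe sets above the nonspecific level on all arrays, log2 differences from control varied between probe sets of a gene with a pooled SD of 0.36 with the HIF-2α hairpin and 0.29 with the HIF-1α hairpin. It is a spread within 1 pair of arrays and not between cultures.

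The HIF-2α-labelled and HIF-1α-labelled arrays were also compared directly, without the control array. Sensor genes were mostly brighter with the HIF-2α hairpin, by less than 2-fold. Of 10 genes 9 were brighter, with a median log2 difference of 0.55 over the 10. The share of all genes that were brighter was not counted. Mavs, the smallest of these 9 differences, ranked 2321 from the highest among all 17097 genes. Only 1, Zbp1, was past 2-fold, as 0.614% of all genes were. Among genes as bright on the HIF-1α-labelled array as the sensor genes the share was 0.894%. Counting probe sets, 2 of 20, both of Zbp1, were past 2-fold, against 0.529% of all probe sets. None was 2-fold lower, against 0.433% of all genes. Ifih1, at 0.95, and Ifi203, at 0.86, followed Zbp1, then Tlr3 at 0.65, Ifi205 at 0.58 and Adar at 0.52 on the log2 scale. Dhx58, Ddx58 and Mavs differed by 0.29, 0.25 and 0.15, and the spread between probe sets of a gene was 0.18 here. Other probe sets gave other values: the second of Ddx58 differed by 0.02, the mean over probe sets of Dhx58 by 0.10, and Tlr3 by 0 without suffixed probe sets. The median of all genes was 0.00.

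**Figure D3:**
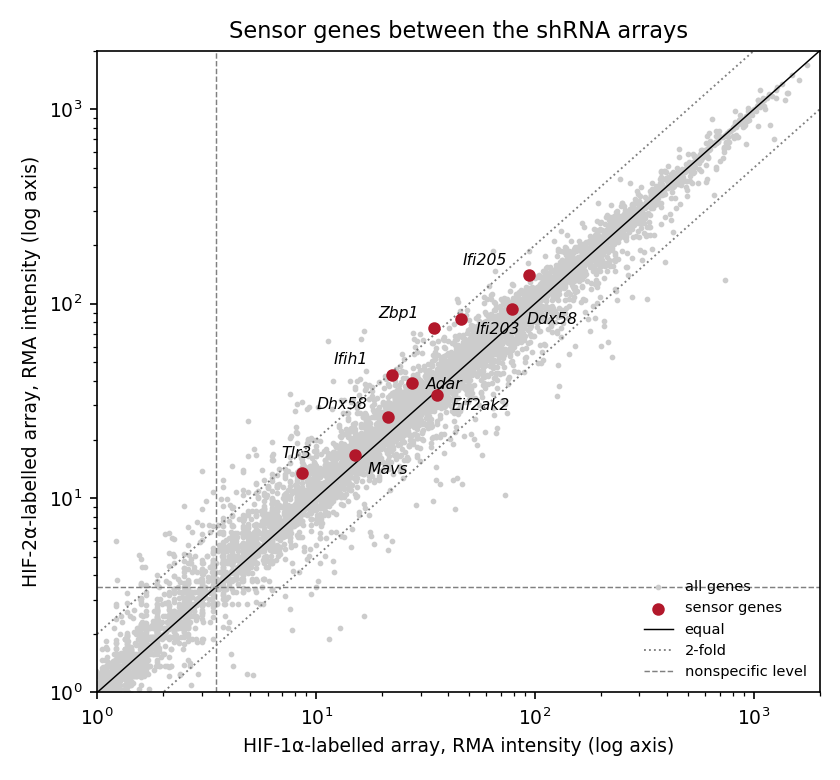
RMA intensity of every gene on the HIF-2α-labelled array (vertical, log axis) against the HIF-1α-labelled array (horizontal, log axis), with the 10 sensor genes in red; values under 1 are not drawn. Dotted lines mark 2-fold and dashed lines the nonspecific level of 3.47; Zbp1 lies just past the upper 2-fold line and Eif2ak2 just under the line of equality.

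Other genes of the sensing pathway were taken from 8 lists, which named 98 genes, 88 of them with a probe set of their own. With the HIF-2α hairpin 14 of 88 (15.9%) were past 2-fold higher, beside 3.96% of all genes, and 0 lower, beside 0.269%. The median of the 88 was 0.32. With the HIF-1α hairpin 8 (9.09%) were higher, beside 2.1% of all genes, and 0 lower, beside 0.0292%, with a median of 0.13. These counts take the brightest probe set of a gene, and those of the genes named can differ from it. Of the 88 genes 76 passed the nonspecific level on some array, and of all 17097 genes 8828 passed it on the HIF-2α-labelled array. Genes under it on every array cannot be past 2-fold. Of genes in the brightness range of the sensor genes on the control array, 10.5% and 5.06% were past 2-fold higher with these hairpins. No range was matched to the pathway genes themselves. The lists were chosen with earlier results of these data known. Between the shRNA arrays 2 (2.27%), Irf7 and Pyhin1, were past 2-fold higher with the HIF-2α hairpin, beside 0.614% of all genes. None was 2-fold lower there, beside 0.433% of all genes.

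Of 12 adaptors and kinases downstream of the sensors, Irf7 alone was past 2-fold on either array. IRF7 is the factor that amplifies interferon production and is itself interferon-induced. It read 70.5 on the HIF-2α-labelled and 27.6 on the HIF-1α-labelled array, against 3.91 on the control array, or 18.0-fold and 7.07-fold higher. Its partner Irf3, which is made without interferon, read 32.8, 30.4 and 24.0 in the same order. The kinase gene Tbk1 read 110.2, 101.3 and 86.4, and Ticam1, the adaptor of TLR3, read 7.61 on both shRNA arrays and 7.49 on the control array. None of these 3 was past 2-fold, though a dimmer probe set of Tbk1 was, at 1.04 on the log2 scale with the HIF-2α hairpin.

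Of 13 other DNA sensors and their adaptor, 6 were past 2-fold with the HIF-2α hairpin and 2 with the HIF-1α hairpin. Pyhin1, another gene of the Ifi200 cluster, read 28.6, 9.10 and 1.94 on the HIF-2α-labelled, HIF-1α-labelled and control arrays and was at least 8.24-fold and at least 2.62-fold higher, while its other probe set was past 2-fold with the HIF-2α hairpin only. Ifi204, from the same cluster, was 2.55-fold and 1.95-fold higher. Ifi202b read 112.4, 81.6 and 54.3 by its 1 probe set. The suffix of that probe set (s_at) marks probes that several transcripts share, so signal from related genes cannot be told apart. Sting1, the adaptor on the endoplasmic reticulum that relays DNA sensing, read 21.4, 13.9 and 8.51, or 2.51-fold and 1.64-fold higher. Cgas, the enzyme that senses DNA and makes the messenger for STING, read 3.75 on the HIF-2α-labelled array and stayed under the nonspecific level on the HIF-1α-labelled and control arrays, at 1.87 and 0.96. Xrcc6, a subunit of the Ku complex that binds DNA ends, was 3.08-fold higher on both by the probe set read above the nonspecific level. It read 10.9 on both shRNA arrays and 3.55 on the control array, barely above that level. Xrcc5, the other subunit, was 2.42-fold and 1.72-fold higher, with a control value of 4.74.

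Among 18 regulators of the RIG-I-like receptors, Trim25, the ubiquitin ligase linked to RIG-I activation, was the one measured past 2-fold by its brightest probe set. It read 87.1 on the HIF-2α-labelled and 61.4 on the HIF-1α-labelled array, against 27.8 on the control array, or 3.13-fold and 2.21-fold higher. Nlrc5 read 4.87 on the HIF-2α-labelled array and was under the nonspecific level on the others, so whether it was past 2-fold was not measured. Dimmer probe sets of Atg12, at log2 differences of 2.12 and 1.39, and of Zc3hav1, at no less than 1.15 with the HIF-2α hairpin, were past 2-fold too. Of 7 other RNA helicases none was measured past 2-fold by its brightest probe set. Ddx60 is a bound, at least 1.87-fold higher with the HIF-2α hairpin, with 6.49 on that array and values under the nonspecific level on the others. Of Ddx21, the other probe set was past 2-fold, at 1.31 on the log2 scale with the HIF-2α hairpin. The endosomal receptors Tlr7, Tlr8 and Tlr9 were under the nonspecific level on every array, so that Tlr3 was the receptor of its class that was read above it.

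Of 9 nucleases and editors that remove or mark a cell's own ligands, 2 were past 2-fold on each shRNA array. Pnpt1, the mitochondrial RNA-degrading phosphorylase, read 51.5 on the HIF-2α-labelled and 34.6 on the HIF-1α-labelled array, against 11.0 on the control array, or 4.67-fold and 3.14-fold higher, while its other 2 probe sets were under the nonspecific level. Samhd1, a nucleotide hydrolase, was 2.25-fold higher on both, and its other probe set differed by 0.52 and 0.76 on the log2 scale. The DNA exonuclease gene Trex1 was 1.81-fold and 1.86-fold higher.

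Of 12 partners and targets of PKR and ZBP1, 3 were past 2-fold with the HIF-2α hairpin and 1 with the HIF-1α hairpin. Prkra, which encodes PACT, an activator of PKR, was 3.10-fold higher on both, against a control value of 4.64 that 638 probe sets share. Eif2ak1, the haem-regulated eIF2α kinase, was 2.01-fold and 1.71-fold higher, while another of its 3 probe sets was lower, by log2 differences of −0.16 and −0.25. Mlkl, the pore-forming protein of necroptosis, read 60.0, 38.4 and 19.6 on the HIF-2α-labelled, HIF-1α-labelled and control arrays, or 3.06-fold and 1.96-fold higher. Ripk3, the kinase between ZBP1 and MLKL, read 43.8, 42.1 and 42.5.

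None of the 5 interferon transcripts named here was read above the nonspecific level. Ifnb1, which encodes interferon β, read 1.35 on every array, and Ifna1, Ifna2, Ifna4 and Ifng lay between 0.93 and 1.35. The receptor gene Ifnar1 read 34.1 on the HIF-2α-labelled and 37.4 on the HIF-1α-labelled and control arrays, and Ifnar2 read 192.3, 220.6 and 198.0. Tyk2, a kinase bound to that receptor, was 2.03-fold and 2.37-fold higher and was the 1 gene of 12 on this list past 2-fold. RNA was collected at 1 time, so earlier levels were not analysed here.

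**Figure D4:**
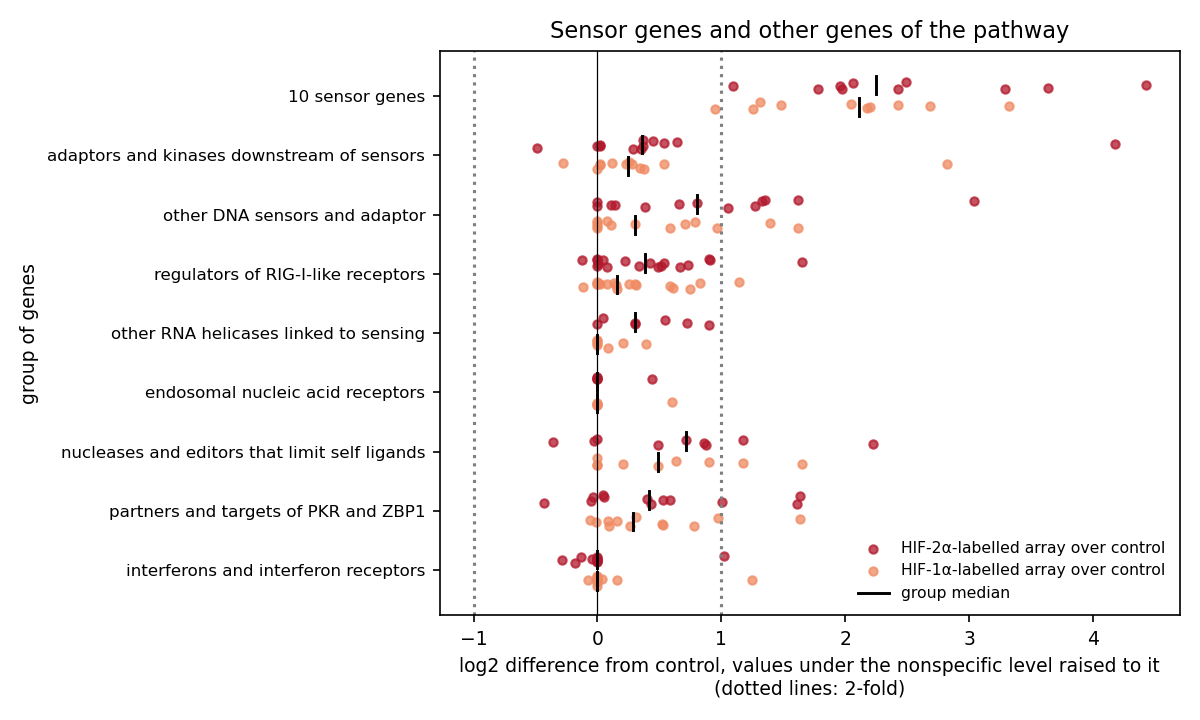
Log2 difference from control of the 10 sensor genes and of the genes of 8 further lists on the HIF-2α-labelled (red) and HIF-1α-labelled (orange) arrays; each point is 1 gene and each black bar a group median. The sensor genes have medians of 2.24 and 2.11, and Irf7 is the point at 4.17 on the HIF-2α-labelled array among adaptors and kinases.

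Markers of other cell types were set beside these results. Of 10 haematopoietic and macrophage markers named by the annotation, 2 passed the nonspecific level on the HIF-2α-labelled array and 1 each on the HIF-1α-labelled and control arrays. Cd14 passed on every array, at 93.2, 87.8 and 93.4, and Cd68 on the HIF-2α-labelled array, at 7.24 against 3.02 and 1.59. Ptprc, the gene of the pan-leukocyte marker CD45, read 1.05 on every array, and the summed level of the list, most of it Cd14, was 109.7, 100.1 and 105.3 on the HIF-2α-labelled, HIF-1α-labelled and control arrays. Of 4 markers of plasmacytoid dendritic cells, the strongest interferon producers of blood, Tcf4 alone passed, at 44.1, 54.8 and 54.8, and made up most of the sums of 48.0, 58.7 and 59.1. None of 5 endothelial markers passed on any array, with sums of 5.30, 5.26 and 6.09. The mesenchymal markers summed to 1075, 1295 and 1254. By brightest probe sets 1 of the 9, Cxcl12, was past 2-fold lower than control with the HIF-2α hairpin, as 0.269% of all genes were. Its log2 difference was −1.79, and that of Thy1 was −0.96. Against the HIF-1α-labelled array 2, Cxcl12 and Pdgfrb, were past 2-fold lower, as 0.433% of all genes were. In both comparisons 0 were past 2-fold higher by brightest probe sets. A dimmer probe set of Cd44 was past 2-fold higher than control with the HIF-2α hairpin, at 1.16 on the log2 scale. The brightest of Cd44 differed by 0.20. What part the number or mix of cells had in the sensor genes' differences was not tested.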

How the data were processed

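Gene expression was measured on 3 single-colour Affymetrix arrays, with biotin-labelled cRNA made from 1 µg of RNA according to the labels, and each array was assigned to its shRNA by its title. The authors deposited 1 table of linear intensity values made with RMA, per the submitters' processing notes; its version, settings and any further scaling are not stated there. Medians were 1.37 on both shRNA arrays and 1.41 on the control array.

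The platform table gave 1 gene to 28898 probe sets and several to 551, and 15588 other probe sets and 104 controls were left out. Names were updated by Entrez identifier for 28689 probe sets, the 10 sensor genes among them (RefSeq, GRCm38.p6). Log2 differences were taken after values under 3.47 were raised to it, and genes were counted at 2-fold. The rule was run on copies of the control array without noise, with changes past 2-fold planted in bright probe sets. It recovers these by construction, so that run shows only that the count works, and says nothing about noise between arrays or calls of dim genes. No test was run and no p-value is given. Genes named are all 10 members, pathway genes past 2-fold, the targeted genes and a few fixed components; Trex1, Ddx21, Ddx60, Nlrc5, Atg12, Zc3hav1, the interferon and receptor genes beside Ifnb1, and single markers out of the listed ones were picked after their values were seen. The members, the lists and the rule were chosen with earlier results of these data known. Alternatives covered scaling (limma 3.58.1, R 4.3.3), the floor, a pseudocount and the choice of probe set. Python 3.11.15 was used with pandas 2.3.3.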

Additional observations from a re-analysis of the deposited data

How the results depend on the processing

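No paired analysis was possible because each group holds 1 array, and no array could be left out. Every sensor gene kept its direction from control under all 9 alternatives per comparison, except Tlr3, which was at 0 without suffixed probe sets; Ifi203 has no probe set there. With 32 added before log2 the medians against control were 0.94 (HIF-2α hairpin) and 0.72 (HIF-1α hairpin) and 0.22 between them. Past 2-fold higher were 5, 1 and 0 sensor genes and 1, 0 and 0 pathway genes, beside 36, 17 and 4 of all genes. The mean of all probe sets gave medians of 1.70 and 1.44 against control, and 4 pathway genes on the HIF-1α-labelled array. Quantile normalization gave the HIF-1α hairpin a median of 1.77, with 8 and 5 pathway genes against control, and 287 genes higher and 95 lower of all genes on the HIF-2α-labelled array, in place of 677 and 46. On the HIF-1α-labelled array it gave 144 higher and 12 lower, in place of 359 and 5. A floor 2 times as high gave the HIF-1α hairpin a median of 1.65. Without suffixed probe sets the median between the shRNA arrays was 0.29. That setting covers 15261 genes. On the HIF-1α-labelled array 5 pathway genes were past 2-fold higher than control there, beside 332 of all these genes. It was 1 pathway gene between the shRNA arrays, beside 86 of all these genes. Between the shRNA arrays 4 sensor genes were past 1.5-fold and 0 past 3-fold. All genes were not counted at these cuts, but Tlr3, the smallest of the 4, ranked 308 from the highest among all 17097 genes. With no floor 5 pathway genes were past 2-fold there, and 4 with each array's own floor, beside 137 and 123 of all genes. That last floor alone shifts the median of all genes, by 0.41. Smaller values under the pseudocount follow from its construction; other causes were not tested.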

Other observations

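The deposited table holds fewer distinct values than probe sets. Of 45141 probe sets the HIF-2α-labelled array had 10566 distinct values, the HIF-1α-labelled array 9336 and the control array 15015. On the HIF-1α-labelled array the value of Tlr3, 8.60, was read by 120 probe sets, that of Mavs, 15.00, by 74, that of Dhx58, 21.3, by 44 and that of Ifih1, 22.3, by 43. On the HIF-2α-labelled array the values of Ifih1, Zbp1, Eif2ak2, Tlr3, Mavs and Adar were held by no other probe set, and that of Dhx58, 26.04, by 24 probe sets in all.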
